A study of Mus musculus with 6 samples.

Results

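The nuclear genes of the respiratory chain and of ATP synthase were taken from the count table by gene symbol. The pattern collects the Nduf subunits of complex I, the Sdh subunits of complex II, the Uqcr subunits and Cyc1 of complex III, the cytochromes c Cycs and Cyct, the Cox4 to Cox8 subunits of complex IV and the Atp5 subunits of ATP synthase (complex V). It found 90 of 57010 gene rows, with 89 symbols on 19 chromosomes, since Atp5o stands on 2 rows. Complex I had 38 rows, among them by its symbol Ndufa4, whose protein is known with complex IV, complex II 4, complex III 9, cytochrome c 2, complex IV 19 and complex V 18. Of these rows, 87 had counts in at least 1 library, and Cox6c2, Cox8b and the second Atp5o row were listed at 0.

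RNA was sequenced from immunoprecipitates made with an antibody against PNMA4, a protein related to retrotransposon Gag that is encoded by Moap1. Each of 6 libraries started from 8 pooled snap-frozen testes, collected at 3 months, whose lysate was spun onto a 25% over 70% sucrose cushion and then through an iodixanol gradient, and PNMA4 was precipitated from iodixanol fractions 8 and 9. There were 3 wild type libraries (C57BL/6J), 2 Pnma4-/- libraries and 1 Pnma1-/- Pnma4-/- library, and the submitters treated the last as the third replicate of the group lacking PNMA4. The comparison asks which RNAs are recovered with PNMA4 beyond what the same antibody and beads recover without it. RNA before precipitation was not analysed here, so every level is an abundance in an immunoprecipitate. In such bulk material, fewer cells of a type and less RNA per cell cannot be told apart. The series' design text calls the 3 libraries of a group biological replicates. Strain is given for the wild type only.

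The respiratory chain passes electrons from NADH, through complex I, and from succinate, through complex II, to ubiquinone, then through complex III and the small carrier cytochrome c to complex IV, which reduces oxygen. The protons pumped on the way drive ATP synthase. Most subunits are encoded in the nucleus, made in the cytosol and imported into mitochondria, and a core set is encoded in mitochondrial DNA. Germ cells of the testis replace several common subunits with forms of their own: Cyct for the cytochrome c Cycs, and the complex IV subunits Cox6b2, Cox7b2 and Cox8c for Cox6b1, Cox7b and Cox8a.

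The libraries held 3138657 to 6367930 counts. Moap1 was counted 7, 26 and 27 times in wild type replicates 1 to 3 and never in the 3 libraries lacking PNMA4, and Pnma1 had 0 counts in the double knockout and 76 to 152 in the others. The double knockout library stood apart: 66.3% of its counts lay on Rn18s-rs5 and Lars2, which collect reads of ribosomal RNA, against 28.1% to 46.9% in the other 5. Its scaling factor (TMM, which sets libraries on a common scale through the bulk of their genes) was 0.628, against 1.01 to 1.29. Medians over groups of genes for wild type over lacking PNMA4 are therefore given with and without it. The testis label was matched by germ cell markers, whose summed level lay between 1749 and 1929 CPM (counts per 1e6 of the scaled library size) for spermatocytes and between 2430 and 3367 CPM for elongating spermatids.

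Respiratory chain mRNAs were a small part of every library. The 90 rows together took 3756, 6906 and 6339 counts in wild type replicates 1 to 3, 3167 and 7152 counts in the Pnma4 knockouts and 3917 counts in the double knockout. That was 0.106% ± 0.00643 (SD, n = 3) of all counts in the wild type and 0.0984% ± 0.0154 (SD, n = 3) in the group lacking PNMA4, where the double knockout had the lowest share, 0.0819%. With the ribosomal RNA-like genes left out of the total, the double knockout had the highest share, 0.243%, against 0.157% to 0.190% in the other 5. After scaling, the summed level was 987, 883 and 974 CPM in the wild type, 1005 and 1022 CPM in the Pnma4 knockouts and 1309.9 CPM in the double knockout. All 3 wild type libraries (mean 948 ± 56.5 CPM, SD, n = 3) lay below all 3 lacking PNMA4 (1112 ± 171 CPM, SD, n = 3), but the nearest libraries of the groups, at 987 and 1005 CPM, were closer than the wild type SD.

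No respiratory chain gene passed the test for a difference between precipitates with and without PNMA4. Of the 90 rows, 70 passed the filter on low counts and were tested among 13413 genes, and 20 did not, of which 17 had some counts. With edgeR's quasi-likelihood test the adjusted p was 1.00 for each of the 70, so 0 members were called, where 0.0596% of all genes tested were called in either direction. At an edgeR unadjusted p under 0.05 there were 5 members, all lower in the wild type, or 7.14% of those tested. Of all genes 2.92% passed in either direction and 1.65% lower. DESeq2 also called 0 and had 2 at an unadjusted p under 0.05, with no share of all genes given here. The log2 fold change of wild type over lacking PNMA4 was positive for 12 members and negative for 58, with a median of -0.30, beside a median of 0.01 and 48.0% negative over all genes. Leydig cell markers had a median of -0.60 and Sertoli cell markers of -0.30 in the same contrast, and their part in the members' values was not tested. The sign of this median turned when total counts were used with no scaling factors, to 0.031, where the median of all genes was itself 0.31 and the members lay at -0.28 relative to it.

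The double knockout moved this median. Without it the median was -0.10 over 72 members tested, 25 positive and 47 negative (46.7% of all genes were negative), 0 called and 0 at an unadjusted p under 0.05, where 0.125% and 1.96% of the 14417 genes tested passed these thresholds and the median of all genes was 0.02. The 95% interval of the fold change with all 6 libraries lay within a doubling either way (log2 of -1 to 1) for 31 of the 70 members, 44.3%, against 71.15% of all genes. For the other members the interval reached past a doubling on at least 1 side. The 5 members at an edgeR unadjusted p under 0.05 became 1 without wild type replicate 2 and 8 without wild type replicate 3. They became 3 and 10 without Pnma4 knockout replicates 1 and 2. For these runs no share of all genes at that p is given here, so the counts allow no comparison with genes at large.

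**Figure D1:**
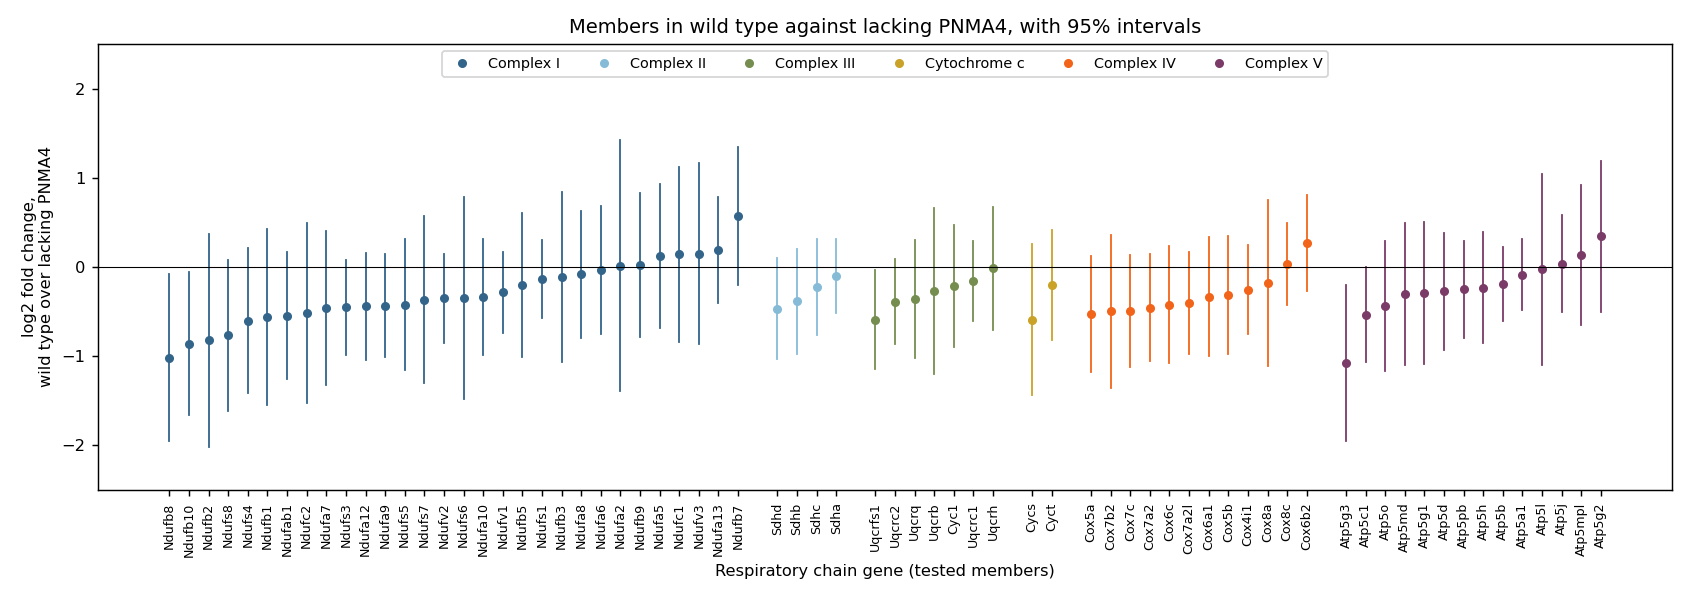
Log2 fold change of wild type over lacking PNMA4 for the tested respiratory chain genes, of which 1 is not drawn, grouped and coloured by complex; points are edgeR estimates and lines their 95% intervals. Over all 70 tested genes 58 lay below 0 and 12 above, with a median of -0.30 that turned to 0.031 with no scaling factors, and most intervals span 0.

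Complex I, the NADH dehydrogenase and the largest of the complexes, had 31 tested members with a median log2 fold change of -0.35 for wild type over lacking PNMA4, 7 positive and 24 negative. Without the double knockout it was -0.10, with 11 positive and 20 negative. Its catalytic core subunit Ndufs1, which carries iron-sulfur clusters, had 54.2, 37.2 and 56.4 CPM in the wild type, 50.1 and 51.4 CPM in the Pnma4 knockouts and 60.5 CPM in the double knockout. The groups overlapped and wild type replicate 2 was the lowest of the 6. Ndufs1 differed by -0.14 (SE 0.21, edgeR adjusted p = 1.00). Ndufv1, which binds NADH, had 32.9, 22.6 and 25.2 CPM against 32.1, 31.9 and 33.8 CPM, with overlapping groups.

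Small accessory subunits of complex I had some of the lowest unadjusted p-values. Ndufb8 had 2.63, 2.17 and 2.61 CPM in the wild type, 4.13 and 2.29 CPM in the Pnma4 knockouts and 9.70 CPM in the double knockout. The groups overlapped, and the double knockout was far above the others. Its log2 fold change of -1.02 (SE 0.45; unadjusted p = 0.0343, edgeR adjusted p = 1.00) became -0.29 without the double knockout. Ndufb10 had 3.68, 2.94 and 2.61 CPM against 5.08, 3.57 and 8.69 CPM, again with the double knockout highest and the groups overlapping, a log2 fold change of -0.86 (SE 0.39) that was -0.46 without the double knockout. At the other end, Ndufb7 had the highest log2 fold change of all members, 0.57 (SE 0.38, edgeR adjusted p = 1.00). It had 6.83, 3.45 and 4.76 CPM in the wild type, 3.49 and 3.29 CPM in the Pnma4 knockouts and 3.01 CPM in the double knockout, with wild type replicate 2 inside the other group's range. Ndufa2 was counted too thinly to give a direction: its levels ran from 0.13 to 2.37 CPM in the wild type alone.

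Complex II, succinate dehydrogenase, is the complex made wholly of nuclear subunits and also works in the citric acid cycle. All 4 members were negative for wild type over lacking PNMA4, with a median of -0.31, and all 4 stayed so without the double knockout, with a median of -0.13. The flavoprotein Sdha had 73.1, 82.0 and 84.7 CPM in the wild type, 72.0 and 88.4 CPM in the Pnma4 knockouts and 96.6 CPM in the double knockout. The groups overlapped widely, and the difference of -0.10 (SE 0.20) had a 95% interval of -0.51 to 0.31. The iron-sulfur subunit Sdhb had 15.8, 7.42 and 12.0 CPM against 14.0, 12.0 and 19.7 CPM, and the membrane anchor Sdhc had 8.94, 12.4 and 15.4 CPM against 14.9, 11.9 and 17.4 CPM. Both overlapped. The other anchor, Sdhd, had 8.41, 7.03 and 7.68 CPM against 10.8, 8.57 and 13.04 CPM, so that the wild type lay wholly below (log2 fold change -0.47, SE 0.27, edgeR adjusted p = 1.00).

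Complex III, which hands electrons to cytochrome c, had a median of -0.27 over 7 tested members, all negative. Without the double knockout the median was -0.07, with 3 positive and 4 negative. The core subunit Uqcrc1 had 58.9, 55.9 and 45.2 CPM in the wild type, 47.9 and 54.4 CPM in the Pnma4 knockouts and 76.2 CPM in the double knockout. The first 5 libraries were mixed, and the double knockout alone lay above them. Uqcrc2 had 16.6, 24.94 and 19.7 CPM against 24.75, 25.29 and 31.1 CPM, and cytochrome c1 (Cyc1) had 7.62, 7.55 and 4.76 CPM against 4.44, 7.43 and 11.4 CPM. Both overlapped, Uqcrc2 only through wild type replicate 2. The Rieske iron-sulfur protein Uqcrfs1 had 11.8, 9.59 and 15.4 CPM against 20.9, 12.7 and 23.1 CPM, overlapping through 1 Pnma4 knockout, with a log2 fold change of -0.59 (SE 0.27; unadjusted p = 0.0375, edgeR adjusted p = 1.00). Without the double knockout Uqcrc1 stood at 0.05 and Cyc1 at 0.10.

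Complex IV, cytochrome c oxidase, had a median of -0.37 over 12 tested members, 2 positive and 10 negative, and of -0.22 without the double knockout, with 3 positive and 10 negative of 13 tested. The regulatory subunit Cox4i1 had 15.0, 17.0 and 13.7 CPM in the wild type, 16.5 and 15.7 CPM in the Pnma4 knockouts and 23.1 CPM in the double knockout. Only the double knockout lay outside the wild type range. Cox5a had 17.6, 5.76 and 15.2 CPM against 18.7, 13.6 and 22.7 CPM, with wild type replicate 2 the lowest. Cox7c had 6.31, 5.37 and 6.76 CPM against 5.71, 8.86 and 11.4 CPM, and Cox7a2 had 9.20, 6.65 and 8.91 CPM against 16.2, 8.29 and 10.03 CPM. The groups overlapped for each of these 3 subunits. The muscle and lung forms were close to absent: Cox4i2 had 4 counts over all 6 libraries, Cox6a2 9 and Cox7a1 3, beside 510 for Cox4i1 and 251 for Cox6a1, counts that are not corrected for length.

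Complex V, the ATP synthase, had a median of -0.24 over 14 tested members, 3 positive and 11 negative, and of -0.13 without the double knockout, with 6 positive and 9 negative of 15 tested. Its catalytic beta subunit Atp5b had 156, 174 and 134 CPM in the wild type, 161 and 177 CPM in the Pnma4 knockouts and 190.3 CPM in the double knockout, and the alpha subunit Atp5a1 had 114.9, 104.4 and 101.6 CPM against 111, 114 and 116 CPM. Both overlapped. Atp5a1 differed by -0.09 (SE 0.20, 95% interval -0.49 to 0.32). The gamma subunit Atp5c1, the rotating shaft, had 10.3, 7.93 and 12.3 CPM against 16.2, 12.7 and 15.7 CPM. All 3 wild type libraries lay below, 1 of them narrowly, and the log2 fold change was -0.54 (SE 0.26; unadjusted p = 0.0477, edgeR adjusted p = 1.00).

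The c subunit, which forms the membrane ring, is encoded by several genes that make the same mature protein. Atp5g3 had the lowest unadjusted p of all members: 3.42, 2.30 and 4.46 CPM in the wild type, 8.57 and 2.86 CPM in the Pnma4 knockouts and 11.4 CPM in the double knockout. The groups overlapped through a Pnma4 knockout, and the 3 libraries lacking PNMA4 were far from each other (log2 fold change -1.08, SE 0.43, unadjusted p = 0.0183, edgeR adjusted p = 1.00; -0.64 without the double knockout). Atp5g1 had 2.89, 3.20 and 3.23 CPM against 4.13, 4.86 and 2.01 CPM. Here the double knockout was the lowest of the 6, the opposite of its place for Atp5g3.

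Over all complexes, the 3 wild type libraries lay apart from the 3 lacking PNMA4 for 5 of the 70 tested members, 7.14%, against 6.69% of all genes tested. The wild type was the lower in all 5, among them Ndufs8, Sdhd, Cox7a2l and Atp5c1, where 3.41% of all genes had the wild type lower; Ndufs8 and Cox7a2l are named here because of this count, after their values were seen. The share that did not overlap in either direction was thus close to that of genes at large, and the share with the wild type lower was about 2 times that of genes at large. Ndufs8, an iron-sulfur subunit of complex I, had 1.58, 2.05 and 2.00 CPM against 3.49, 2.86 and 3.68 CPM, and Cox7a2l, a factor of supercomplexes, had 6.57, 7.93 and 8.45 CPM against 8.88, 9.14 and 13.04 CPM. In both, the double knockout was the highest. Among members below the filter, Ndufa4 and Atp5j2 also had all wild type libraries lower, at 0.26 to 0.61 CPM and 1.41 to 1.69 CPM in the wild type.

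**Figure D2:**
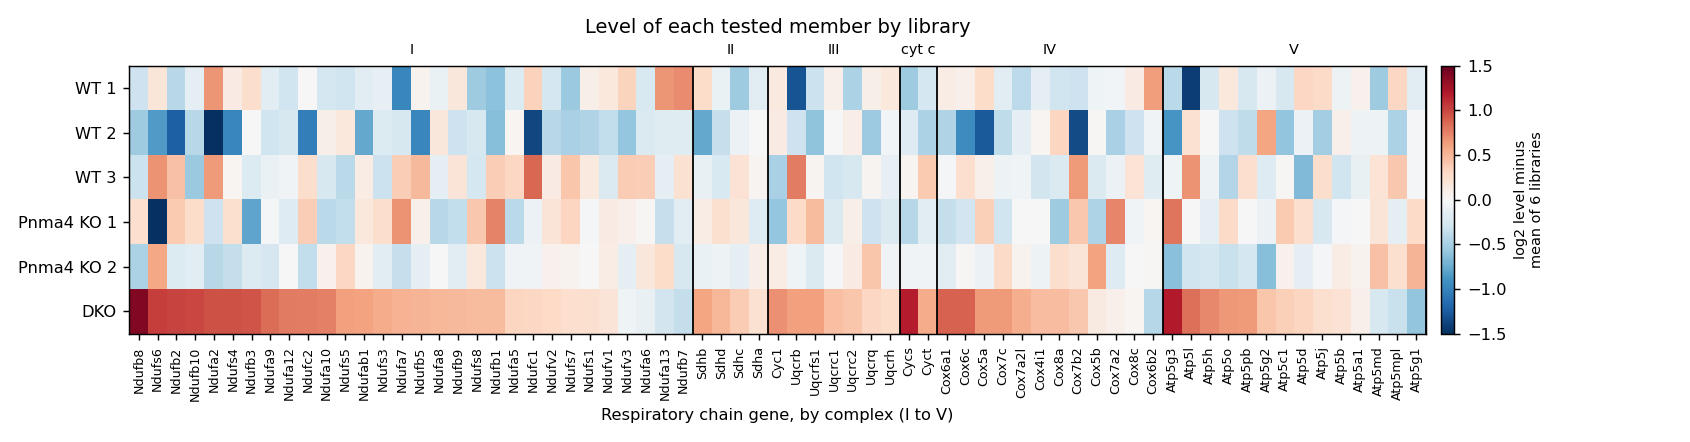
Level of the tested respiratory chain genes, of which 1 is not drawn, in each library as a log2 deviation from the gene's mean over the 6 libraries (CPM + 0.5), with genes in columns by complex and libraries in rows. Over all 70 tested genes, the double knockout was above the gene's mean for 62 of 70 genes, and wild type replicate 2 for 15 of 70.

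Respiratory chain genes stood high in the double knockout library. It held the highest of the 6 values for 49 of the 70 tested members, 70.0%, against 22.8% of all genes tested, and the lowest for 3 (Ndufb7, Cox6b2 and Atp5g1), against 21.4% of all genes. By complex it was highest for 23 of 31 members of complex I, 4 of 4 of complex II, 5 of 7 of complex III, both cytochromes c, 7 of 12 of complex IV and 8 of 14 of complex V. The median member deviated from its own mean by 0.48 (log2) in the double knockout, by -0.31 in wild type replicate 2, and by -0.11 to -0.003 in the other 4.

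**Figure D3:**
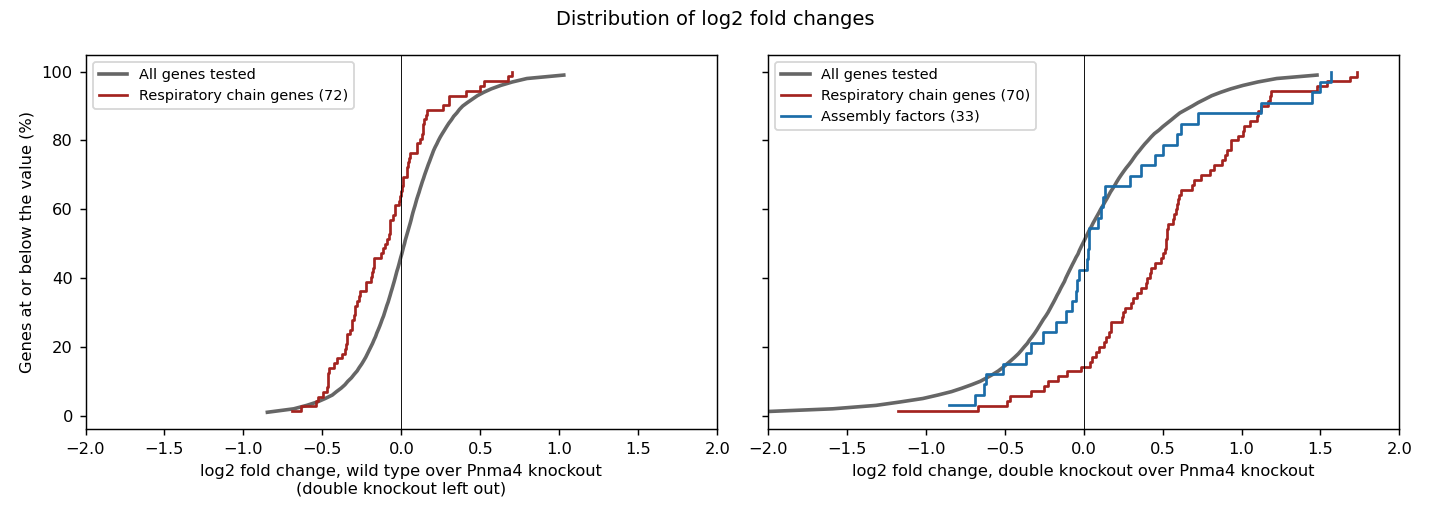
Cumulative distribution of log2 fold changes (percent of genes at or below each value) for the respiratory chain genes beside all genes tested. The first panel shows wild type over the Pnma4 knockouts, with the double knockout left out. The second shows the double knockout over the Pnma4 knockouts, with the 33 tested assembly factors added. The members' medians are -0.10 and 0.52 while those of all genes are 0.02 and -0.005. With no scaling factors the members' median in the second panel turned to -0.24, and that of all genes went to -0.76.

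Set against the 2 Pnma4 knockouts, which also lack PNMA4, the double knockout gave a positive log2 fold change for 60 members and a negative one for 10, with a median of 0.52, beside -0.005 over all genes, of which 49.5% were positive. With no scaling factors the members' median turned to -0.24 and that of all genes to -0.76, which leaves the members 0.53 above; 21 were then positive. In edgeR 0 members were called, where 0.0746% of all genes were, and 13 (18.6%) had an unadjusted p under 0.05, all higher, against 6.19% of all genes in either direction and 3.72% higher; DESeq2 called 0, with 4 at that unadjusted p. No share of all genes at that unadjusted p is given here for DESeq2. Leaving out Pnma4 knockout replicate 1 gave a members' median of 0.52 in edgeR, and leaving out replicate 2 gave 0.43. The lone double knockout library was assumed in the edgeR fit to vary like the others, and no replicate checks it. The double knockout and both Pnma4 knockouts also enter the comparison with the wild type, so the 2 sets of values are not independent.

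Members with the lowest p in this contrast came from several complexes. Ndufb8 stood 1.68 higher (SE 0.53, edgeR adjusted p = 0.373), the electron carrier Cycs 1.48 (SE 0.51, edgeR adjusted p = 0.491) and Cox6a1 1.19 (SE 0.42, edgeR adjusted p = 0.511). For Cox6a1 the levels were 8.94, 5.88 and 8.14 CPM in the wild type, 6.35 and 7.29 CPM in the Pnma4 knockouts and 15.7 CPM in the double knockout, which lay alone above the rest. The subunits named here from the peripheral stalk of ATP synthase all had positive log2 fold changes in this contrast. So had 11 of the 14 tested members of complex V, with 3 negative, and 60 of all 70 members. Atp5h had 6.83, 8.19, 7.68, 7.30 and 6.71 CPM in the first 5 libraries and 13.7 CPM in the double knockout, and Atp5pb had 16.6, 15.0, 23.7, 19.7 and 16.3 CPM and then 31.1 CPM. The stalk subunits Atp5o and Atp5j stood 0.75 (SE 0.50) and 0.37 (SE 0.41) higher, beside 0.98 (SE 0.42) for Atp5h and 0.80 (SE 0.37) for Atp5pb. The double knockout was the highest library for Atp5o and lay inside the range of the others for Atp5j. Differences among these subunits were not tested. The catalytic subunits differed by less than their SE, Atp5b by 0.17 (SE 0.33) and Atp5a1 by 0.04 (SE 0.32). Members above the median level of the list had a median of 0.49 and those at or below it 0.59, with summed levels of 1.30 and 1.58 times the mean of the other 5 libraries, and a filter at a count of 50 gave a median of 0.40; a dependence on level was not tested.

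**Figure D4:**
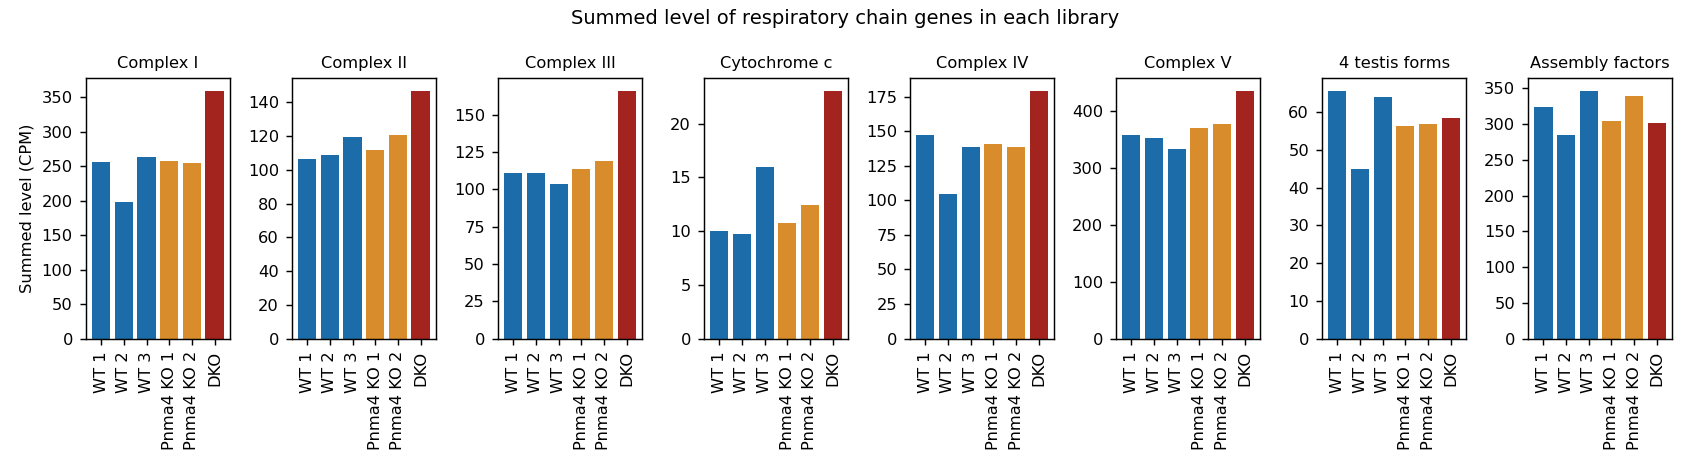
Summed level (CPM) of the members of each complex, of the 4 testis forms and of the assembly factors, 1 bar per library, with bars starting at 0 and a scale for each panel. In each panel of a complex and for cytochrome c the double knockout (DKO) is the highest bar, for example 359.5 CPM against 198.3 to 263.0 CPM for complex I, and it is not for the testis forms or assembly factors; with no scaling factors the members' median for the double knockout over the Pnma4 knockouts was -0.24.

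As summed levels, the double knockout had 1.46 times the mean of the other 5 libraries for complex I (360 against 246 ± 26.7 CPM, SD, n = 5), 1.29 times for complex II, 1.49 times for complex III (166 against 112 ± 5.55 CPM), 1.96 times for the cytochromes c (23.1 against 11.8 ± 2.57 CPM), 1.34 times for complex IV and 1.22 times for complex V. The sum of the 4 testis forms was 58.5 CPM in the double knockout and 57.6 ± 8.23 CPM (SD, n = 5) in the others, a ratio of 1.02. Their median log2 fold change over the Pnma4 knockouts was 0.09 (3 positive, 1 negative), beside 0.53 for the other members. This difference was not tested, and the 4 forms did not move together. Cyct stood at 0.69 (SE 0.44), Cox7b2 at 0.13 (SE 0.62), Cox8c at 0.05 (SE 0.36) and Cox6b2 at -0.46 (SE 0.42).

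Other RNAs moved with the double knockout as well. The 12 Leydig cell markers, each with counts in every library, summed to 224 to 256 CPM in the wild type, 209 to 281 CPM in the Pnma4 knockouts and 497 CPM in the double knockout; all 11 tested were higher there than in the Pnma4 knockouts, with a median log2 fold change of 0.85. Sertoli cell markers had 229.2 to 334.8 CPM in the first 5 libraries and 515 CPM in the double knockout, with a median of 0.76. Peritubular and stromal markers had 44.8 to 60.2 CPM and then 92.6 CPM. Markers of spermatocytes, round spermatids and elongating spermatids summed to 1929, 367 and 2955 CPM in the double knockout and to a mean of 1822, 351 and 3032 CPM in the others. Spermatogonium markers summed to 87.3 CPM against 59.3 to 65.6 CPM, but they did not move together. Of 7 tested, 5 were higher in the double knockout than in the Pnma4 knockouts and 2 lower, with a median of 0.27. Kit had the largest value, 1.17, while Zbtb16 stood at -0.64 and Gfra1 at -0.41. The double knockout was highest for 2 of the 7 (28.6%), against 22.8% of all genes. Macrophages had 31.8 against 19.8 to 29.5 CPM, blood 14.7 against 5.88 to 8.94 CPM and endothelium 21.7 against 16.9 to 27.9 CPM. Brown fat and muscle markers summed to at most 3.01 CPM, and Acta1 was at 0 counts in all 6 libraries. For wild type over lacking PNMA4 the median log2 fold change was -0.60 over 11 tested Leydig cell markers, 8 negative and 3 positive. Of the 11, 4 (36.4%) had an edgeR unadjusted p under 0.05, all lower, against 2.92% of all genes in either direction and 1.65% lower. The positive ones, Star, Nr5a1 and Scarb1, stood at 0.007, 0.05 and 0.03. The median was -0.30 over the 11 Sertoli cell markers and -0.27 over the 7 peritubular and stromal markers. Without the double knockout these medians were 0.02, 0.01 and 0.05. Epididymis markers summed to 13.4, 10.5 and 13.4 CPM in the wild type. Against these stood 25.7 and 17.4 CPM in the Pnma4 knockouts and 29.8 CPM in the double knockout, without overlap of the groups. Of the 12 markers 3 were tested, and Lcn5, Lcn9, Lcn10, Adam28 and Defb20 were at 0 in all 6 libraries. Most of the sum was Cst8, at means of 8.98 CPM in the wild type and 14.8 CPM lacking PNMA4, and Crisp1, at 0.44 and 5.79 CPM. Rnase10 went the other way, at 1.33 and 1.16 CPM. Crisp1, a secreted protein of the epididymis, had 2, 5 and 1 counts against 20, 21 and 24 and was lower in the wild type by a log2 fold change of -3.57 (SE 0.56, edgeR adjusted p = 0.00244). The part of these cell types, of the ribosomal RNA share and of the scaling in the members' values was not tested.

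The testis forms and their common partners were compared as a share of each pair's counts, which needs no scaling between libraries; the share is not corrected for length, so it says nothing of which form is the more abundant. Over the 6 libraries Cyct had 279 counts and Cycs 129, Cox6b2 533 and Cox6b1 46, Cox7b2 152 and Cox7b 7, and Cox8c 805 and Cox8a 69. Each testis form was thus readily counted in material with germ cell markers.

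The promoters of the cytochrome c pair are shown because they set a common and a testis gene side by side in the pair whose testis share was lowest in the double knockout. RefSeq (GRCm38.p6) gives for Cycs the 200 bases before the start at chr6:50566570-50566769, and for Cyct those at chr2:76360454-76360653, both on the minus strand and printed from 5′ to 3′. Capitals mark TGACGTCA, the cyclic AMP response element, 169 bases before the start of Cycs, and GCATGCGC, the core bound by NRF1, a known regulator of respiratory chain genes, 60 bases before it. Of the motifs searched, Cyct held none in these bases.
Cycs: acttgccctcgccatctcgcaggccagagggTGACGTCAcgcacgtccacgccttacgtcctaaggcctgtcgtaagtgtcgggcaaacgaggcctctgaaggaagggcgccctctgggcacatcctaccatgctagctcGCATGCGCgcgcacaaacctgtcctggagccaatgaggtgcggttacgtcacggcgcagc
Cyct: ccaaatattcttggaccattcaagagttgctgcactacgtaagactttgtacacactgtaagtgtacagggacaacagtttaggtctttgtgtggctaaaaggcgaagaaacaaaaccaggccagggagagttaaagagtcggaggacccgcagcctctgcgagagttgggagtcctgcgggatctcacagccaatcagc

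Windows from 250 bases before to 50 after the start were listed for 72 of the 89 symbols, as 77 windows, and were searched on both strands. GCATGCGC was in 11 of them (14.3%), against 2.71% of all 32851 windows of that length, and TGACGTCA in 5 (6.49%) against 1.79%. The ETS-type motif ACTTCCGG was in 6.49% against 3.89%, and TATAAA in 11.7% against 13.6%. The 8 tested members with the NRF1 core had a median log2 fold change of 0.82 for the double knockout over the Pnma4 knockouts, and the 48 with a window but no such core 0.50. For wild type over lacking PNMA4 these medians were -0.12 and -0.36, and without the double knockout 0.09 and -0.21, so that the first turned sign. Differences between these medians were not tested. The 8 members with the core include Cycs and Cox6a1, named above for their low p in the double knockout contrast. A match is a run of letters only, and binding was not measured.

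Cyct had 7.36, 6.27 and 11.8 CPM in the wild type, 7.93 and 8.57 CPM in the Pnma4 knockouts and 13.4 CPM in the double knockout. Wild type replicate 3 and the double knockout were the high libraries, and the groups overlapped (wild type over lacking PNMA4 -0.20, SE 0.30, edgeR adjusted p = 1.00). Its partner Cycs had 2.63, 3.45, 4.15, 2.86 and 3.86 CPM in the first 5 libraries and 9.70 CPM in the double knockout, 2.86 times the mean of the others. The share of Cyct in the pair was 73.7%, 64.5% and 74.0% in the wild type (70.7% ± 5.42, SD, n = 3), 73.5% and 68.97% in the Pnma4 knockouts and 58.0% in the double knockout. The last was the lowest, but its 95% Wilson interval, 46.2% to 68.9%, which covers counting error only, reached into the range of the others.

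Cox6b2 had 26.3, 16.2 and 14.7 CPM in the wild type, 17.1 and 17.0 CPM in the Pnma4 knockouts and 12.4 CPM in the double knockout. It was among the 3 members lowest there, while wild type replicate 1 was highest, and the wild type and lacking groups overlapped (0.27, SE 0.26, edgeR adjusted p = 1.00). Its share of the pair with Cox6b1 was 93.5% ± 1.76 (SD, n = 3) in the wild type and 88.1% ± 4.52 (SD, n = 3) in the group lacking PNMA4, and 84.1% in the double knockout, with a 95% Wilson interval of 70.6% to 92.1%. This share, too, was the lowest of the 6 and its interval reached the others.

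Cox8c, the most counted of the testis forms, had 28.4, 20.8 and 30.0 CPM in the wild type and 25.1, 25.9 and 26.4 CPM in the libraries lacking PNMA4. The latter lay inside the wild type range, and the difference was 0.03 (SE 0.22, 95% interval -0.43 to 0.49). Its share with Cox8a was 92.7% ± 3.53 and 92.0% ± 2.84 (SD, n = 3 each). Cox7b2 was more thinly counted, with 3.68, 1.54 and 7.53 CPM against 6.35, 5.43 and 6.35 CPM and shares of 96.1% ± 3.85 and 93.8% ± 5.38 (SD, n = 3 each). The CPM of both spread more widely over the wild type libraries than over those lacking PNMA4; the share of Cox7b2 did not.

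**Figure D5:**
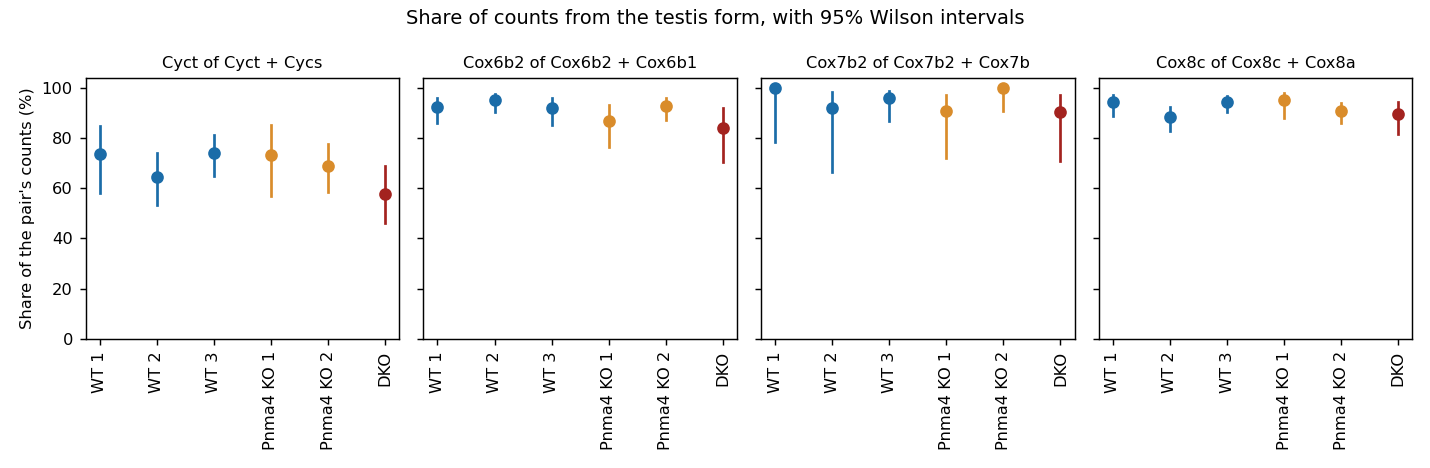
Share of the testis form in the counts of each pair (percent), 1 point per library with its 95% Wilson interval, for Cyct with Cycs, Cox6b2 with Cox6b1, Cox7b2 with Cox7b and Cox8c with Cox8a. The double knockout is the lowest point for Cyct (58.0%) and Cox6b2 (84.1%), with intervals that overlap those of other libraries.

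Assembly factors, which build the complexes without being part of them, had 33 tested of 52 rows, with a median of 0.01 for wild type over lacking PNMA4 (18 positive, 15 negative; 0.02 without the double knockout) and of 0.03 for the double knockout over the Pnma4 knockouts (19 positive, 14 negative), with 0 called in either. The double knockout was highest for 8 of 33 (24.2%), near the 22.8% of all genes, and their summed level there was 302 CPM against 320 ± 25.7 CPM (SD, n = 5). Enzymes of the citric acid cycle, which feeds the chain with NADH and succinate, had 14 tested, with 12 negative for wild type over lacking PNMA4 (median -0.14, or -0.06 without the double knockout) and 10 positive for the double knockout (median 0.23), and 0 called.

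The summed level of subunits encoded in mitochondrial DNA was 402, 932 and 1223.5 CPM in the wild type, 516 and 959 CPM in the Pnma4 knockouts and 1473.4 CPM in the double knockout, so the groups overlapped and the wild type spanned most of the range. Of the 13 subunits listed, 8 were tested. mt-Nd4l, mt-Co2, mt-Co3, mt-Atp6 and mt-Atp8 were not, at means of 0.68, 0.15, 1.34, 0.077 and 0.026 CPM over the 6 libraries. The largest parts of the sum were mt-Co1 and mt-Nd5, at means of 359 and 181 CPM. All 8 tested were negative for wild type over lacking PNMA4 (median -0.19), and 7 were positive without the double knockout (median 0.10). For the double knockout over the Pnma4 knockouts all 8 were positive, with a median of 0.92, and 0 were called. Whether the nuclear and mitochondrial members differ in response was not tested.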

How the data were processed

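The authors deposited raw read counts per gene for 6 libraries. The submitters' processing notes name bcl2fastq 2.20, STAR 2.5.2b, featureCounts, DESeq2 and the build GRCm38; the settings, strand, annotation release and treatment of multi-mapping reads were not given in sources used here, so members with near-identical copies or pseudogenes are uncertain. Counts were tested as deposited with edgeR 4.0.16 (quasi-likelihood, TMM; filterByExpr with a minimum count of 10 and total of 15), adjusted by Benjamini-Hochberg over all genes tested, threshold 0.05, in R 4.3.3. The double knockout contrast used 1 group per genotype. Levels are CPM of the scaled library size. DESeq2 1.42.0, limma 3.58.1, other scalings and filters, the replicate block and leaving out each library were alternatives. Scripts were tested on simulated data. Members are those of the symbol pattern. Named with values were the isoform pairs, complex II, the most counted of each complex and those with the largest differences or lowest p-values. Ndufs8 and Cox7a2l are said to be chosen after their values were seen. Atp5o, Atp5j, Ndufa4 and Atp5j2 are also given with values outside this rule. Members and lists were chosen with earlier results of these data known. Levels per coding length were not computed, since no protein table was used here; the levels of different genes are therefore not ranked. Depth ran from 3138657 to 6367930 counts. 1 member is counted but not reported by name here.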

Additional observations from a re-analysis of the deposited data

How the results depend on the processing

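For wild type over lacking PNMA4, 0 members were called under any alternative run. Few genes at large were called either: 8 in the main run, 2 with a filter at a count of 50 and 31 with no filter except a count above 0. The other alternative runs lay between the last 2 values. With so few calls, 0 members does not set them apart from genes at large. The double knockout contrast has 1 library in a group, so calls under its alternative runs are not compared here. For wild type over lacking PNMA4 the median of the members was 0.031 with no scaling factors (all genes 0.31) and otherwise -0.27 to -0.32; leaving out 1 library gave -0.42 (without Pnma4 knockout replicate 2) to -0.096 (without the double knockout). For the double knockout over the Pnma4 knockouts it was -0.24 with no scaling factors (all genes -0.76) and otherwise 0.40 to 0.56, with 0.43 to 0.52 on leaving out 1 library. Same-numbered libraries did not deviate together (correlations 0.037, -0.064 and 0.079), beside -0.19 to 0.19 for differently numbered ones. With 3 libraries per group this cannot tell whether same-numbered libraries share a batch. With the replicate block the median was -0.31 and 0 members were called. Of 477 values of single named members in the first contrast 20 had the other sign, over 12 members, and of 411 in the second 4, over 4 members. In these counts, values with no scaling factors were taken relative to the median of all genes. As fitted with no scaling factors, 36 tested members were positive and 34 negative in the first contrast. In the second, 21 were then positive and 49 negative. In the first contrast Ndufa2 went to -2.21e-04 with DESeq2, -0.76 with voom and -0.27 with the block, and Cox8c to -0.029 with voom; in the second Atp5a1 went to -0.0050 with no filter. On leaving out 1 library, the first contrast ranged from -0.42 to 0.70 for Ndufa2, -0.25 to 0.042 for Ndufs1, -0.47 to 0.096 for Cyc1, -0.29 to 0.055 for Uqcrc1, -0.54 to 0.13 for Cox6a1, -0.017 to 0.42 for Cox6b2, -0.077 to 0.19 for Cox8c, -0.54 to 0.014 for Atp5g1, -0.46 to 0.13 for Atp5h, -0.47 to 0.046 for Atp5pb, -0.86 to 0.0094 for Cycs and -0.53 to 0.034 for Cyct. The second ranged from -0.72 to 0.27 for Cox7a2, -0.025 to 0.22 for Cox7b2 and -0.069 to 0.30 for Atp5c1. The cause was not tested. The shares and levels per coding length were not run. Few counts stand behind many members, so that only large differences could have been seen for them.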
